A study of Mus musculus with 14 samples.

Results

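Intact peptides of the neuronal membrane proteasome were compared with the same peptides after cleavage by proteinase K, in 6 of the 14 RNA sequencing libraries of the series. The neuronal membrane proteasome (NMP) is a proteasome complex at the neuronal plasma membrane that releases peptides to the outside of the cell, and proteinase K (PK) is a protease of broad specificity. The 6 libraries were chosen by their labels: 3 from cultures given purified NMP peptides and 3 from cultures given PK-cleaved NMP peptides. Both preparations were added at 4% by volume for 1 h to primary cortical neuron cultures from wild-type C57BL/6 mice at day 12 in vitro. The other libraries were 3 with NMP peptides at 4% in the presence of 100 µM APV (an NMDA receptor antagonist), 3 with 20 µM bicuculline (a GABA-A receptor blocker) and 2 with 1% DMSO. They entered the statistical model to estimate the spread between libraries. The replicates are labelled biological, but not whether they came from separate animals or cultures, and p-values refer to the spread between these libraries only. Whether protease remained active in the cleaved preparation is not given in the sources used here, and no culture with proteinase K alone was analysed here.

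Immediate-early genes are transcribed within minutes of synaptic or growth-factor stimulation, without new protein synthesis. Calcium entry through NMDA receptors and voltage-gated channels acts on CREB, MEF2 and SRF with its Elk partners, which already sit at these genes or are rapidly switched on by changes in phosphorylation. The first products include transcription factors (Fos, Egr, Nr4a, Npas4), dual-specificity phosphatases that switch MAP kinases off again, and synaptic effectors such as Arc. Genes such as Bdnf and Nptx2 usually follow later.

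Cultures given intact NMP peptides had higher levels of immediate-early genes than cultures given the cleaved peptides. With 10877 genes tested, 9 rose and 0 fell at a Benjamini-Hochberg adjusted p under 0.05 in limma, which is 0.0827% of the genes tested. The 9 were 6 transcription factor genes (Npas4, Fosb, Fos, Nr4a1, Klf4 and Junb), the anti-proliferative gene Btg2, the salt-inducible kinase gene Sik1, and Ppp1r10, which encodes a nuclear regulatory subunit of protein phosphatase 1. Their increases ranged from 1.31-fold to 5.5-fold. The median log2 fold change of all genes tested was 0.00, and at an unadjusted p under 0.05, 97 genes were higher and 82 lower. These 179 of 10877 genes are fewer than that threshold would pass if no gene differed. Same-numbered libraries of both groups deviated together across genes, so the comparison was also made with replicate number as a block. With the block and all 14 libraries, 11 genes rose and 0 fell (0.101% of genes were higher), namely the 9 above, Dusp1 and Dusp6. When the blocked fit was restricted to these 6 libraries, 24 rose (0.221%) and 1 fell (0.00919%). The count without the block rested on single libraries. It was 2, 1 and 11 without replicates 1, 2 and 3 of NMP peptides, and 8, 1 and 2 without replicates 1, 2 and 3 of PK-cleaved peptides.

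**Figure D1:**
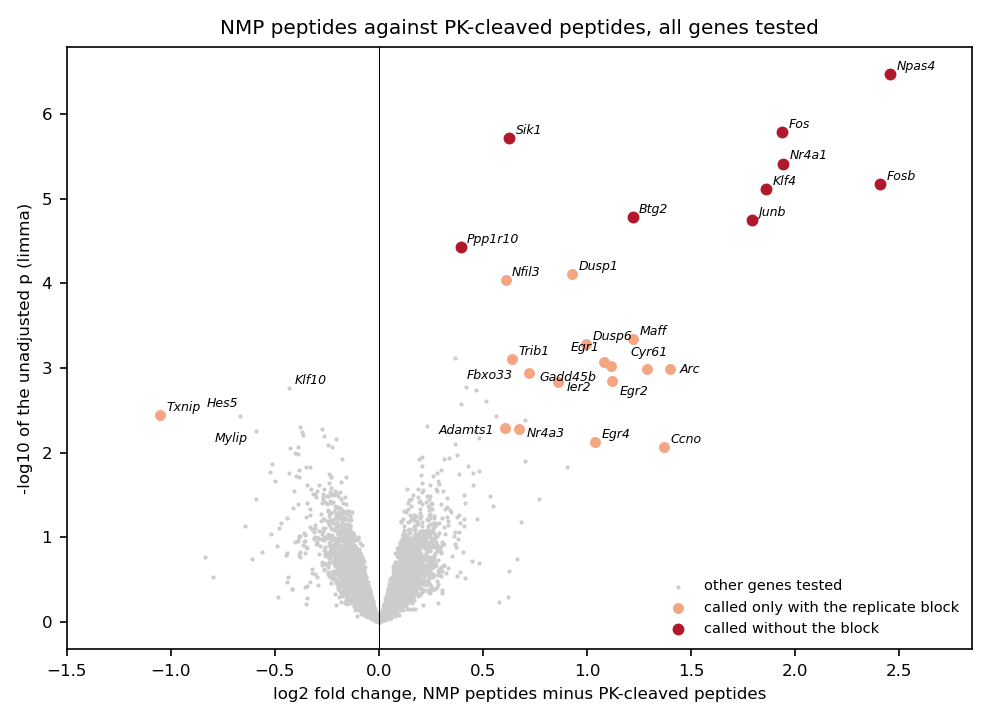
Each point is a gene, with the log2 fold change (NMP peptides minus PK-cleaved peptides) on the x axis and −log10 of the unadjusted limma p on the y axis, from the fit without a replicate block. The 9 genes called without the block lie at the top, right of 0, from 0.39 for Ppp1r10 to 2.46 for Npas4. The genes called only with a block are in a lighter colour, and Txnip is the only one of these left of 0.

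Values below are log2 signals, quantile-normalised by library and given for replicates 1, 2 and 3 in turn. Npas4, a neuron-specific transcription factor induced by calcium entry (chr19:4984353-5003439, GRCm38), had 3.45, 3.80 and 2.93 with NMP peptides, against 1.21, 0.82 and 0.77 with PK-cleaved peptides. The lowest library with intact peptides lay above the highest with cleaved peptides. Such separation, in either direction, was found in 5.21% of all genes tested. The log2 fold change was 2.46 (SE 0.27, adjusted p = 0.00368), or 5.5-fold. Npas4 was called in all 6 fits that each left out 1 of these libraries, with log2 fold changes of 2.25 to 2.69. It was the 1 gene called without replicate 2 of NMP peptides, and likewise without replicate 2 of PK-cleaved peptides.

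Members of the Fos and Jun families form the dimeric transcription factor AP-1. Fosb (chr7:19302696-19310118) had 4.86, 5.03 and 4.23 with NMP peptides, against 2.72, 2.38 and 1.80 with PK-cleaved peptides. Fos (chr12:85473890-85477274) had 6.31, 6.56 and 5.71 with NMP peptides, against 4.57, 4.29 and 3.90 with PK-cleaved peptides. Junb (chr8:84976909-84978748) had 6.24, 6.18 and 5.54 with NMP peptides, against 4.52, 4.37 and 3.69 with PK-cleaved peptides. In each of these genes replicate 3 was the lowest library of both groups, and the groups did not overlap. Fosb rose 5.31-fold (log2 fold change 2.41, SE 0.35, adjusted p = 0.0139), Fos 3.83-fold (1.94, SE 0.25, adjusted p = 0.0069) and Junb 3.46-fold (1.79, SE 0.28, adjusted p = 0.0243). Without replicate 1 or 2 of NMP peptides, or replicate 2 or 3 of PK-cleaved peptides, none of the 3 was called. The adjusted p was then 0.056 to 0.072 for Fos, 0.079 to 0.13 for Fosb and 0.0893 to 0.207 for Junb. Jun, the other main AP-1 subunit, was not called, with 5.50, 5.59 and 5.50 with NMP peptides, against 5.24, 5.13 and 5.24 with PK-cleaved peptides (log2 fold change 0.33, SE 0.14). Neither Jund (0.20, SE 0.13) nor Fosl2 (0.39, SE 0.20) was called.

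Nr4a1, an orphan nuclear receptor (chr15:101253902-101274795), had 5.11, 5.22 and 4.49 with NMP peptides, against 3.39, 3.07 and 2.54 with PK-cleaved peptides. It rose 3.84-fold (log2 fold change 1.94, SE 0.27, adjusted p = 0.0105). Klf4, a Krüppel-like zinc finger factor (chr4:55527137-55532475), had 1.83, 2.46 and 1.67 with NMP peptides, against 0.41, 0.10 and -0.13 with PK-cleaved peptides. It rose 3.63-fold (log2 fold change 1.86, SE 0.27, adjusted p = 0.0139). The groups did not overlap in either gene. Klf4 averaged 1.99 ± 0.42 with NMP peptides and 0.13 ± 0.27 with PK-cleaved peptides (SD, n = 3 each). Its mean with PK-cleaved peptides is below the lowest mean kept by the filter on low values (0.35), which Klf4 passed on its mean of 1.26 over all 14 libraries. Klf4 was also called with no filter. Neither gene was called without replicate 1 or 2 of NMP peptides or replicate 2 or 3 of PK-cleaved peptides, where the log2 fold change was 1.71 to 1.98 for Nr4a1 (adjusted p = 0.0583 to 0.105) and 1.63 to 1.94 for Klf4 (adjusted p = 0.0821 to 0.13).

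Btg2, an anti-proliferative cofactor of the mRNA deadenylation machinery (chr1:134074865-134079155), had 4.33, 4.41 and 3.78 with NMP peptides, against 3.15, 2.76 and 2.94 with PK-cleaved peptides. Btg2 rose 2.33-fold (log2 fold change 1.22, SE 0.19, adjusted p = 0.0243). Without replicate 1 or 2 of NMP peptides, or replicate 2 or 3 of PK-cleaved peptides, its adjusted p was 0.162 to 0.207. Sik1, a kinase that phosphorylates CREB co-activators and thereby limits CREB-driven transcription (chr17:31844248-31855804), had 3.33, 3.52 and 3.41 with NMP peptides, against 2.72, 2.77 and 2.90 with PK-cleaved peptides. Its increase of 1.55-fold was small but its libraries lay close together (log2 fold change 0.63, SE 0.08, adjusted p = 0.0069). The adjusted p of Sik1 was 0.072 without replicate 2 of NMP peptides and 0.0575 without replicate 2 of PK-cleaved peptides. Ppp1r10 (chr17:35916512-35932283) had 3.59, 3.64 and 3.62 with NMP peptides, against 3.16, 3.27 and 3.24 with PK-cleaved peptides. It had the smallest change of the 9, 1.31-fold (log2 fold change 0.39, SE 0.07, adjusted p = 0.0446). Its libraries were also the closest of the 9, with an SD of 0.02 with NMP peptides and 0.06 with PK-cleaved peptides. Ppp1r10 was called in 0 of the 6 fits that each left out 1 of these libraries (adjusted p = 0.124 to 0.308), and with the block and these 6 libraries alone it had an adjusted p of 0.0638.

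**Figure D2:**
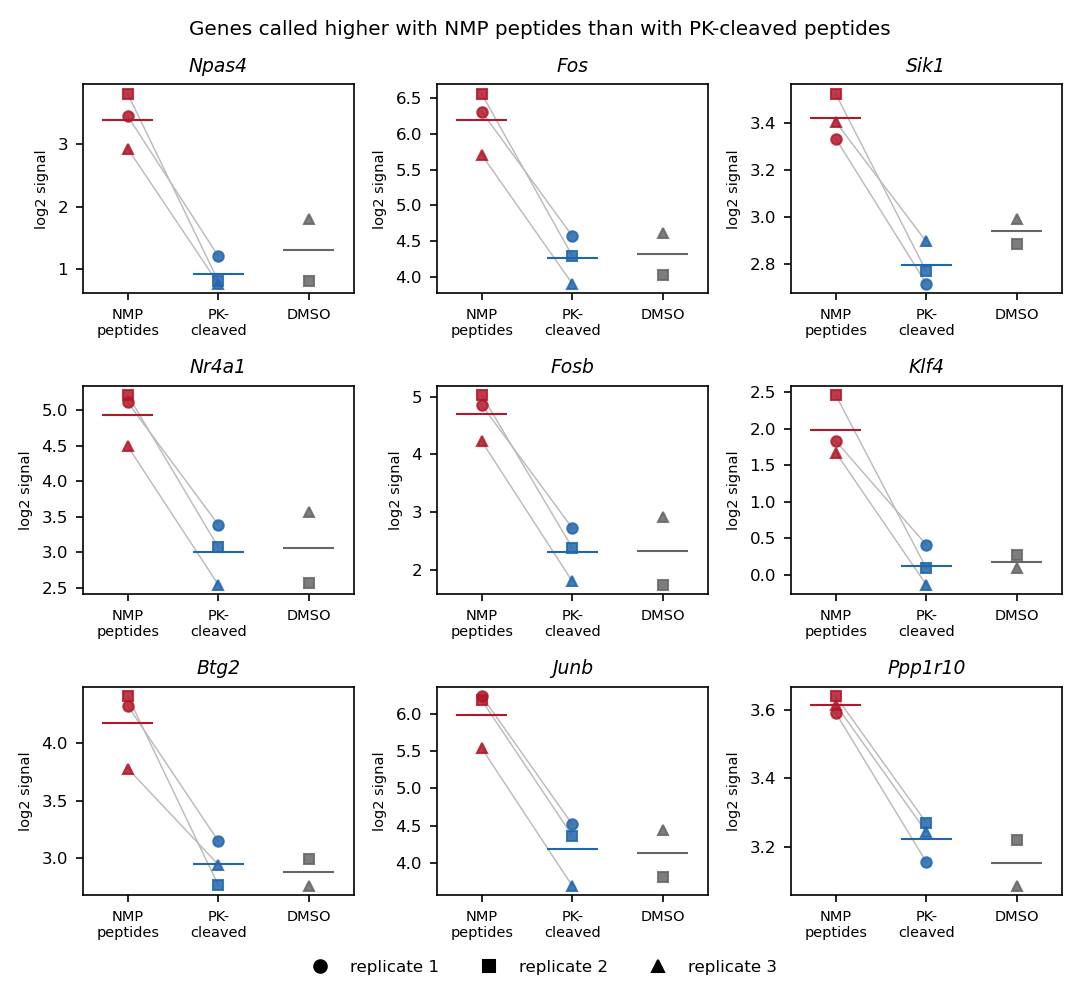
Log2 signal (y axis, a scale of its own in each panel) of the 9 called genes in each library with NMP peptides, PK-cleaved peptides and DMSO, with horizontal lines at the group means, marker shapes for replicate numbers and grey lines joining same-numbered libraries. In all 9 panels the 3 libraries with NMP peptides lie above the 3 with PK-cleaved peptides, for Npas4 at 2.93 to 3.80 against 0.77 to 1.21.

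The 9 called genes were compact. Their genomic spans in RefSeq ran from 1840 to 20894 bp with a median of 7423 bp, against a median of 25043 bp over the 10829 tested genes that matched RefSeq. RefSeq promoter windows on GRCm38.p6, reaching from 250 bases before to 50 after the start, were available for 8 of the 9 genes. The search covered both strands. The windows of Npas4, Nr4a1 and Ppp1r10 lie wholly inside the gene spans given above, so the outer ends of those spans were not searched. Distances below refer to the start on which each window was built. CREB binds the full palindromic site TGACGTCA and, less strongly, its core TGACG, which is contained in the full site. The core was found in 7 of these 8 genes, against 37.6% of 8422 tested genes with a window and 20.8% of all 32851 windows. Npas4, Fos, Nr4a1, Fosb, Klf4, Btg2 and Junb held it, and Ppp1r10 did not. The full site was found in Btg2 alone of the 8 genes, against 3.95% of tested genes and 1.79% of all windows. The AP-1 site TGANTCA was found in 0 of the 8 genes, against 5.31% of tested genes and 7.81% of all windows. The EGR site GCGTGGGCG was found in 0 of the 8, against 1.48% of tested genes and 0.612% of all windows, and the SRF-binding CArG box in 0 of the 8, against 1.52% and 1.63%. The letters TATAAA were found in 3 of the 8 genes, against 7.85% of tested genes and 13.6% of all windows. A gene counts once if any of its windows holds the letters. Sites farther from the start, or with other letters, were not searched, so 0 matches do not show that a gene lacks the site. A match is a description of the letters, and the genes were set beside their promoters because they rose together. The windows of 5 of them are printed, 5′ to 3′, with the core TGACG, or CGTCA where it lies on the other strand, in capitals. Npas4 is at chr19:4989922-4990221, minus strand, Fos at chr12:85473640-85473939, plus strand, Nr4a1 at chr15:101266596-101266895, plus strand, Fosb at chr7:19309996-19310295, minus strand and Btg2 at chr1:134079106-134079405, minus strand.
Npas4: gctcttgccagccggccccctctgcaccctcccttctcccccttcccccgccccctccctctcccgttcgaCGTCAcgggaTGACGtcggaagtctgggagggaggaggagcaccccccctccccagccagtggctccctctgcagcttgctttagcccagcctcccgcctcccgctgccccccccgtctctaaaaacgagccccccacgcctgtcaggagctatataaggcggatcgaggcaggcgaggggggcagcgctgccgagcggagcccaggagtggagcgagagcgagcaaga
Fos: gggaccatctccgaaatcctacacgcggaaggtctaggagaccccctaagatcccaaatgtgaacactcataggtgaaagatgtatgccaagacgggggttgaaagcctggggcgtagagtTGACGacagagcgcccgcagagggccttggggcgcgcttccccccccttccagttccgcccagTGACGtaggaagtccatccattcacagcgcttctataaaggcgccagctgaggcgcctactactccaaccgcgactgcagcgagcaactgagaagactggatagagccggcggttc
Nr4a1: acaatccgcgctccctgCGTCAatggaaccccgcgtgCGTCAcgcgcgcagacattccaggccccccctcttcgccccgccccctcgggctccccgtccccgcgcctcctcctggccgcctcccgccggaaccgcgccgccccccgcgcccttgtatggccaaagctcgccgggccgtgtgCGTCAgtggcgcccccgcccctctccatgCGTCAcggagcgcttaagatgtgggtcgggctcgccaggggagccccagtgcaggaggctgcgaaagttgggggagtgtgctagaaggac
Fosb: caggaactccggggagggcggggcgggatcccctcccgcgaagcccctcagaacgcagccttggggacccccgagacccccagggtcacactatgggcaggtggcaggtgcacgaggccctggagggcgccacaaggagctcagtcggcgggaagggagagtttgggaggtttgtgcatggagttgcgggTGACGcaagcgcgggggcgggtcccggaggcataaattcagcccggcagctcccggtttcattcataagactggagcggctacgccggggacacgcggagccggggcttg
Btg2: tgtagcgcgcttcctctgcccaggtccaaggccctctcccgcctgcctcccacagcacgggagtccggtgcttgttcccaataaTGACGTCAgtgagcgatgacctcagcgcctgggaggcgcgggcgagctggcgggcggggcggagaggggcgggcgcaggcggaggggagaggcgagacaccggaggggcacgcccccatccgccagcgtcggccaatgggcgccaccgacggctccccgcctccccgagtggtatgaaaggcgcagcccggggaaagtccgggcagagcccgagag
The first base of the core nearest to the start lay 169 bases before it in Npas4, 66 in Fos, 40 in Nr4a1, 60 in Fosb and 163 in Btg2. Nr4a1 held 4 cores, and Npas4, Fos and Btg2 held 2 each, those of Btg2 overlapping within its full site.

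Further genes of the same kind passed with the block, most of them only when the fit was also restricted to these 6 libraries. With all 14 libraries the block over these groups added Dusp1 and Dusp6. Replicate 3 was the lowest library with NMP peptides in 21 of the 24 genes that rose with the block and these 6 libraries alone, and the lowest with PK-cleaved peptides in 19 of them. The median SE over all genes tested was 0.07 in that fit, 0.09 with the block and all 14 libraries, and 0.10 with 14 libraries and no block. Over these 24 genes the median difference was 1.08 for replicate 1, 1.39 for replicate 2 and 0.99 for replicate 3, and no gene had a difference below 0.45. The 24 genes were called from these same differences, which are therefore no separate evidence. For Npas4 the 3 differences were 2.23, 2.99 and 2.15, for Fosb 2.14, 2.65 and 2.43, for Fos 1.74, 2.27 and 1.80 and for Junb 1.72, 1.81 and 1.84. Over all genes tested, 15.2% had 3 differences above 0 and 14.7% had 3 below 0. Gfap, an intermediate filament gene of astrocytes, was highest in replicate 3 of both groups, with 2.41, 2.87 and 4.15 with NMP peptides, against 2.45, 2.15 and 3.97 with PK-cleaved peptides. Its part in the replicate pattern was not tested. When the 4 libraries richest in Gfap were left out, replicate 3 of both groups among them, 10 genes rose and 0 fell without a block, 6 of the 9 among them together with Dusp1, Dusp6, Egr1 and Egr2.

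**Figure D3:**
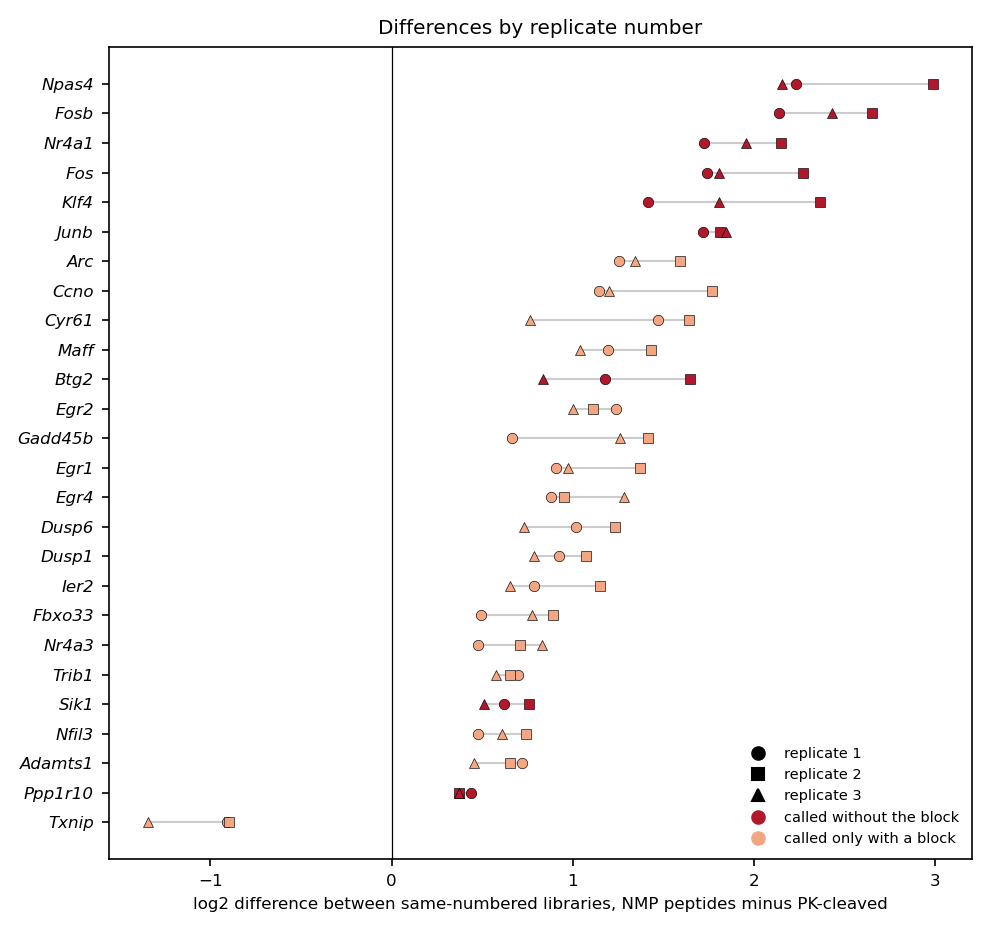
Log2 difference between same-numbered libraries, NMP peptides minus PK-cleaved peptides (x axis), for the 26 genes called with or without a replicate block (y axis), with a marker shape for each replicate and a darker colour for the 9 called without the block. In 25 genes all 3 differences are above 0, and in Txnip all 3 are below 0, from -1.35 to -0.90. The genes were called from these same libraries, so the shared signs are no separate evidence.

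The MAP kinase phosphatases Dusp1 and Dusp6 rose with the block over these 2 groups in the fit of all 14 libraries (adjusted p = 0.0141 and 0.0472). With the block over all groups Dusp1 was called (adjusted p = 0.0472) and Dusp6 was not (adjusted p = 0.313). Dusp1, which acts on several MAP kinases in the nucleus (chr17:26505591-26508472), had 4.34, 4.39 and 3.80 with NMP peptides, against 3.41, 3.32 and 3.02 with PK-cleaved peptides (1.9-fold, adjusted p = 0.085 without the block). Dusp6, a cytoplasmic phosphatase of ERK (chr10:99263231-99267489), had 5.07, 5.10 and 4.25 with NMP peptides, against 4.05, 3.86 and 3.52 with PK-cleaved peptides (1.99-fold, adjusted p = 0.442 without the block). The groups did not overlap in either gene. Of 17 MAP kinase feedback regulators tested, 2 rose with the block over these groups and 0 without it, and their median log2 fold change was 0.07. Spry2 (0.24, SE 0.10), Dusp5 (0.23, SE 0.23) and Dusp4 (0.22, SE 0.15) were not called, nor were Dusp7 (-0.23, SE 0.10) and Dusp2 (-0.35, SE 0.22) below 0.

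Zinc finger factors of the Egr family rose with the block in the fit of these 6 libraries and were not called in the fit of all 14 without it. Egr1 (chr18:34861207-34864956) had 6.33, 6.77 and 5.72 with NMP peptides, against 5.42, 5.40 and 4.75 with PK-cleaved peptides. The difference was 2.12-fold. Its SE on the log2 scale was 0.26 in the fit of all 14 libraries without the block and 0.09 in the blocked fit of 6 (adjusted p = 0.572 and 0.00661). Egr4 had 4.72, 4.53 and 3.94 with NMP peptides, against 3.84, 3.57 and 2.66 with PK-cleaved peptides (adjusted p = 0.00631 in the blocked fit of 6). Egr2 had 2.01, 1.91 and 1.20 with NMP peptides, against 0.77, 0.79 and 0.20 with PK-cleaved peptides (adjusted p = 0.00877 in the blocked fit of 6). With the block in the fit of all 14 libraries none of these 3 was called, with an adjusted p of 0.0502 for Egr1, 0.248 for Egr2 and 0.736 for Egr4. Egr3, the fourth member, was not called in either fit, at a log2 fold change of 0.38 (SE 0.22). In Egr1, Egr2 and Egr4 the 3 libraries with intact peptides lay above the 3 with cleaved peptides, which held for 2.48% of all genes tested.

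Arc, an effector of AMPA receptor removal whose mRNA travels into dendrites (chr15:74669081-74672570), had 4.07, 4.21 and 3.20 with NMP peptides, against 2.81, 2.62 and 1.85 with PK-cleaved peptides. The difference was 2.63-fold, with an adjusted p of 0.592 in the fit of 14 libraries without the block, 0.122 with the block in that fit and 0.000818 with the block and these 6 libraries alone. Cyr61, also called Ccn1, a secreted matricellular protein, had 4.70, 4.67 and 3.54 with NMP peptides, against 3.23, 3.02 and 2.78 with PK-cleaved peptides (2.45-fold, adjusted p = 0.0308 in the blocked fit of 6 and 0.2 in that of 14). Gadd45b, a stress- and activity-induced regulator of MAP kinases and DNA demethylation, had 3.33, 3.26 and 2.89 with NMP peptides, against 2.67, 1.84 and 1.63 with PK-cleaved peptides (2.16-fold, adjusted p = 0.0374 in the blocked fit of 6 and 0.177 in that of 14). In all 3 genes the groups did not overlap. Also higher in the blocked fit of 6 libraries were the transcription factor genes Maff (2.33-fold), Ier2 (1.82-fold), Nr4a3 (1.59-fold) and Nfil3 (1.53-fold). The remaining genes were the pseudokinase gene Trib1 (1.56-fold), the F-box gene Fbxo33 (1.65-fold), the metalloprotease gene Adamts1 (1.52-fold) and the cyclin-related gene Ccno (2.59-fold). Their adjusted p-values in that fit ran from 0.00788 for Maff to 0.0498 for Adamts1, and in the blocked fit of 14 libraries none of these 8 was called, with the lowest value 0.0627 for Ier2. The blocked fit of 6 libraries has 2 residual degrees of freedom before moderation, against 9 in the fit of all 14 libraries without a block.

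A single gene fell with the block and these 6 libraries alone, and 0 fell in the fits of all 14 libraries. Txnip, the thioredoxin-interacting α-arrestin that limits glucose uptake (chr3:96557957-96561857), had 2.34, 2.43 and 2.89 with NMP peptides, against 3.24, 3.32 and 4.24 with PK-cleaved peptides. All 3 libraries with intact peptides lay below all 3 with cleaved peptides, which held for 2.73% of all genes tested. The log2 fold change was -1.05 (SE 0.30, adjusted p = 1) without the block, and the adjusted p was 0.01 with it and 0.537 with the block in the fit of all 14 libraries. The DMSO libraries had 4.73 and 3.64, above every library with intact peptides.

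Genes that were not called and whose groups did not overlap were taken from both ends of the fold changes. At the upper end were Gadd45g (log2 fold change 0.90, SE 0.33), a growth-arrest gene, and Nr4a2 (0.70, SE 0.25), another orphan nuclear receptor. Spty2d1 (0.70, SE 0.20), Atf3 (0.67, SE 0.48), a stress-induced transcription factor, and Clk1 (0.56, SE 0.16), a kinase of splicing factors, followed. At the lower end were Hes5 (-0.67, SE 0.19), a Notch-induced repressor, Mylip (-0.59, SE 0.18), a ubiquitin ligase for lipoprotein receptors, and Id3 (-0.50, SE 0.19), an inhibitor of basic helix-loop-helix factors. Pim1 (-0.48, SE 0.25), a kinase gene, and Morf4l1b (-0.59, SE 0.26) completed them. Reads of Morf4l1b may be shared with its close relative Morf4l1. Hes5 had 2.73, 2.75 and 3.38 with NMP peptides, against 3.76, 3.60 and 3.52 with PK-cleaved peptides, and the DMSO libraries had 3.44 and 2.80. Klf10, a Krüppel-like repressor, had 1.73, 1.59 and 1.59 with NMP peptides, against 2.10, 2.00 and 2.10 with PK-cleaved peptides (log2 fold change -0.43, SE 0.11, adjusted p = 0.784) and was the only tested immediate-early factor whose libraries with intact peptides all lay below those with cleaved peptides.

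Set beside DMSO, the genes that rose with intact against cleaved peptides had values above 0 with intact peptides and from -0.37 to 0.43 with cleaved peptides. Npas4 and Fos were the 2 genes called higher with NMP peptides than with DMSO (0.0184% of genes tested, adjusted p = 0.0455 for each), and 0 were lower. These comparisons use the same libraries of each peptide group, and both share the 2 DMSO libraries, so the values are given side by side. The DMSO libraries are labelled replicates 2 and 3, so replicate 1 has no DMSO counterpart here. Gfap was 4.13 in DMSO replicate 2 and 2.68 in DMSO replicate 3, and its part in these values was not tested. Over the 9 called genes the median log2 fold change was 1.86 for NMP peptides and -0.06 for PK-cleaved peptides, each against DMSO. Fosb had 2.38 (SE 0.39) with intact and -0.02 (SE 0.39) with cleaved peptides. Klf4 had 1.80 (SE 0.30) with intact and -0.06 (SE 0.30) with cleaved peptides. Npas4 had 2.08 (SE 0.31) with intact and -0.37 (SE 0.31) with cleaved peptides. The 95% interval of the difference between PK-cleaved peptides and DMSO was -1.03 to 0.28 for Npas4, -0.65 to 0.53 for Fos and -0.09 to 0.23 for Ppp1r10. It included 0 in all 9 genes and in all 24 genes that rose with the block. These intervals do not show that cleaved peptides and DMSO act alike. PK-cleaved peptides against DMSO gave 0 called genes in either direction in limma, with 15 higher and 99 lower at an unadjusted p under 0.05. That too is fewer than the threshold would pass if no gene differed. Egr4 had the highest value of the 24 there, 0.43 (SE 0.37).

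**Figure D4:**
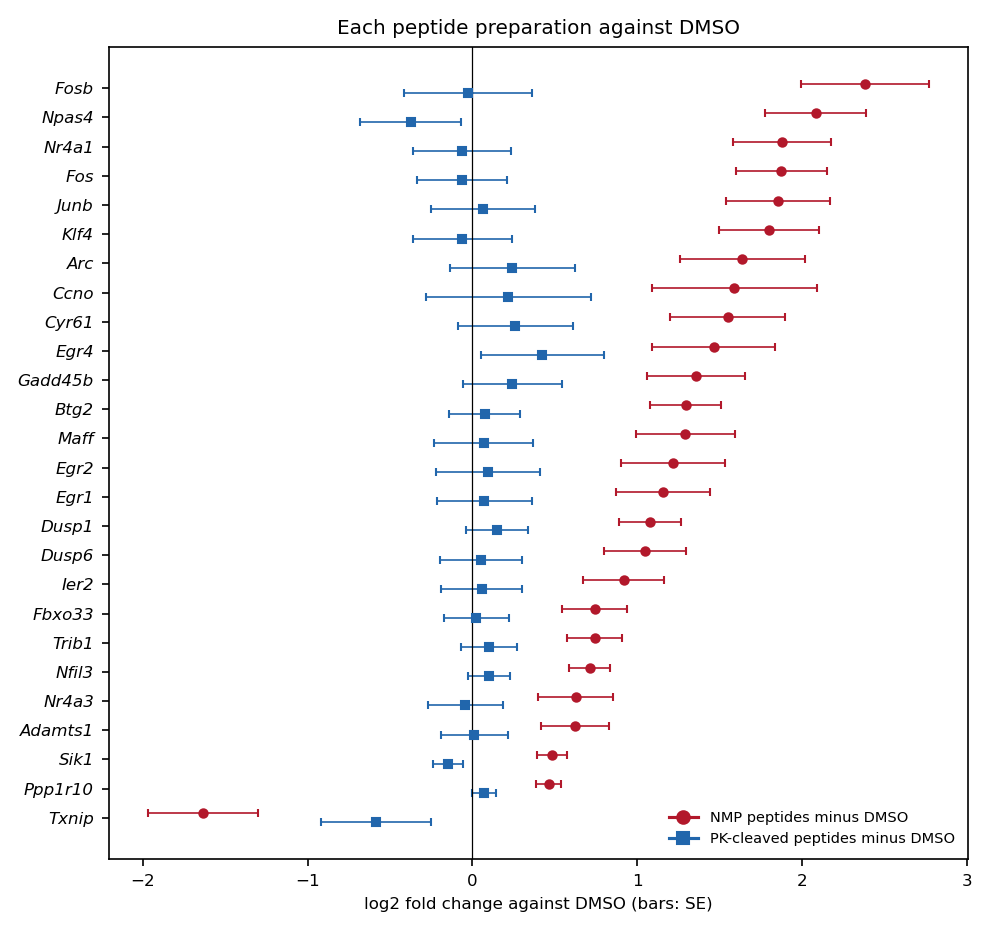
Log2 fold change against DMSO (x axis, bars are the SE of the limma fit) of NMP peptides (circles) and PK-cleaved peptides (squares) for the 26 genes called with or without a replicate block. The values for NMP peptides run from 0.46 for Ppp1r10 to 2.38 for Fosb, with Txnip at -1.63, and those for PK-cleaved peptides from -0.37 for Npas4 to 0.43 for Egr4, with Txnip at -0.58.

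Ppp1r10 had another order of values over the other treatments. Against DMSO its log2 fold change was 0.46 (SE 0.07) with NMP peptides, 0.37 with NMP peptides plus APV and 0.19 with bicuculline. For Npas4 the corresponding values were 2.08 (SE 0.31), -1.27 and 4.33, and for Fos 1.88 (SE 0.28), 0.46 and 3.38. With bicuculline 8 of the 9 genes were called higher than with DMSO, as were 0.469% of all genes tested. The median of the 9 was 3.19. Ppp1r10 was not called there, but the 95% interval lay above 0 in all 9 genes. Whether these profiles differ was not tested. The partners of Ppp1r10 in its phosphatase complex were not called: the log2 fold changes with intact against cleaved peptides were -0.03 (SE 0.05) for Ppp1ca, 0.04 (SE 0.05) for Ppp1cb, 0.04 (SE 0.07) for Ppp1cc, 0.05 (SE 0.06) for Tox4 and -0.03 (SE 0.07) for Wdr82. Of 17 genes of this complex and of transcription elongation, Ppp1r10 was the 1 that rose, and the median was 0.00.

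Among the gene lists with more than 1 tested member, the fast transcription factors had the highest median. The lists were chosen with earlier results of these data known. Of 29 immediate-early transcription factors tested, 6 rose and 0 fell without the block, and 13 rose with the block and these 6 libraries alone. Their median log2 fold change was 0.61, and 26 lay above 0, against 5491 of all 10877 genes tested. In 22 all 3 same-numbered differences were above 0, against 15.2% of all genes tested. Crem (-0.06, SE 0.18), Mafk (0.00, SE 0.13), Ier5 (0.03, SE 0.15) and Bhlhe40 (0.15, SE 0.15) had values from -0.06 to 0.15. Fosl1, Klf2 and Csrnp1 did not pass the filter. Of 24 activity-regulated effectors tested, 2 rose and 0 fell, 7 rose with the block, and the median was 0.38 with 22 above 0. Plk2, a kinase of synaptic scaling, had 6.08, 6.36 and 6.12 with NMP peptides, against 5.80, 5.80 and 5.79 with PK-cleaved peptides (log2 fold change 0.39, SE 0.11). Tiparp had 0.52 (SE 0.14) and Rgs2, a brake on G-protein signalling, 0.45 (SE 0.18). These 3 were not called, although their groups did not overlap. Homer1, a scaffold of metabotropic glutamate receptors, had 0.04 (95% interval -0.19 to 0.28). Ptgs2, Rasd1, Rrad and Amigo3 did not pass the filter. Ptgs2, the inducible prostaglandin synthase, had -1.30, -0.91 and -1.78 with NMP peptides, against -3.12, -3.17 and -2.27 with PK-cleaved peptides, without overlap. How often features below the filter separate in this way was not determined.

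Slower and secreted activity genes were not called. Of 14 tested, 0 rose and 0 fell with or without the block, the median was 0.02 and 8 lay above 0. Bdnf, a neurotrophin, had the highest value of the list, with 1.94, 2.24 and 1.28 with NMP peptides, against 1.61, 1.18 and 0.62 with PK-cleaved peptides and overlapping groups (log2 fold change 0.68, 95% interval -0.05 to 1.42). Vgf, a secreted neuropeptide precursor, had 0.27 (-0.41 to 0.94), and Nptx2, a secreted organiser of AMPA receptors, -0.12 (-0.45 to 0.20). Inhba and Crh did not pass the filter.

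The genes that carry calcium and MAP kinase signals to these promoters were not called. Of 31 tested, 0 rose and 0 fell in any of these fits, and all values lay between -0.19 and 0.10 with a median of -0.02. Creb1 had 0.06 (95% interval -0.15 to 0.28), Srf, counted with the immediate-early factors, 0.00 (-0.21 to 0.20), and Elk1 -0.08 (-0.28 to 0.13). Of 20 glutamate receptor subunits 0 were called, with a median of -0.02. Grin1, the obligatory NMDA receptor subunit, had 0.02 (-0.27 to 0.30) and Grin2b 0.28 (-0.36 to 0.92). Of 38 proteasome subunit and Gpm6 genes 0 were called, with values from -0.13 to 0.17. The immunoproteasome genes Psmb8 and Psmb9 did not pass the filter, and Psmb9 had -0.82, -0.41 and -0.56 with NMP peptides, against -1.40, -2.20 and -2.27 with PK-cleaved peptides, without overlap. Here too the share of such separation below the filter was not determined. Gpm6a had 0.01 (SE 0.07) and Gpm6b 0.03 (SE 0.07). These membrane glycoproteins are reported to hold the proteasome at the neuronal surface.

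Stress genes and the few inflammatory genes tested were not called either. Of 17 heat shock chaperones 0 were called and the median was 0.01. Hspa1b had 0.37 (SE 0.23) and Dnajb1 0.18 (SE 0.13). Hspa1a and Hspa1b are near-identical, so their separate values are uncertain. Among 21 genes induced by unfolded proteins or by the integrated stress response 0 were called. Of these, 20 lay above 0, against 5491 of all 10877 genes tested, with a median of 0.11. The median of this list's SE was 0.17. Hspa5, the main chaperone of the endoplasmic reticulum, had 7.47, 7.55 and 7.41 with NMP peptides, against 7.33, 7.23 and 7.31 with PK-cleaved peptides, and Cebpb 2.76, 2.51 and 2.42 with NMP peptides, against 2.34, 2.17 and 2.33 with PK-cleaved peptides, both without overlap. Of 26 inflammatory and interferon genes 4 passed the filter and 0 were called. The other members were not tested. Among them Il1b had -3.52, -3.87 and -4.44 with NMP peptides, against -4.77, -4.84 and no value with PK-cleaved peptides. Ccl3 had a value only in replicate 3 of PK-cleaved peptides. How often such differences occur below the filter was not determined. Nfkbia, an inhibitor of NF-κB, had -0.14 (SE 0.12). Tnf and Ccl5 had no value in any of the 6 libraries.

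**Figure D5:**
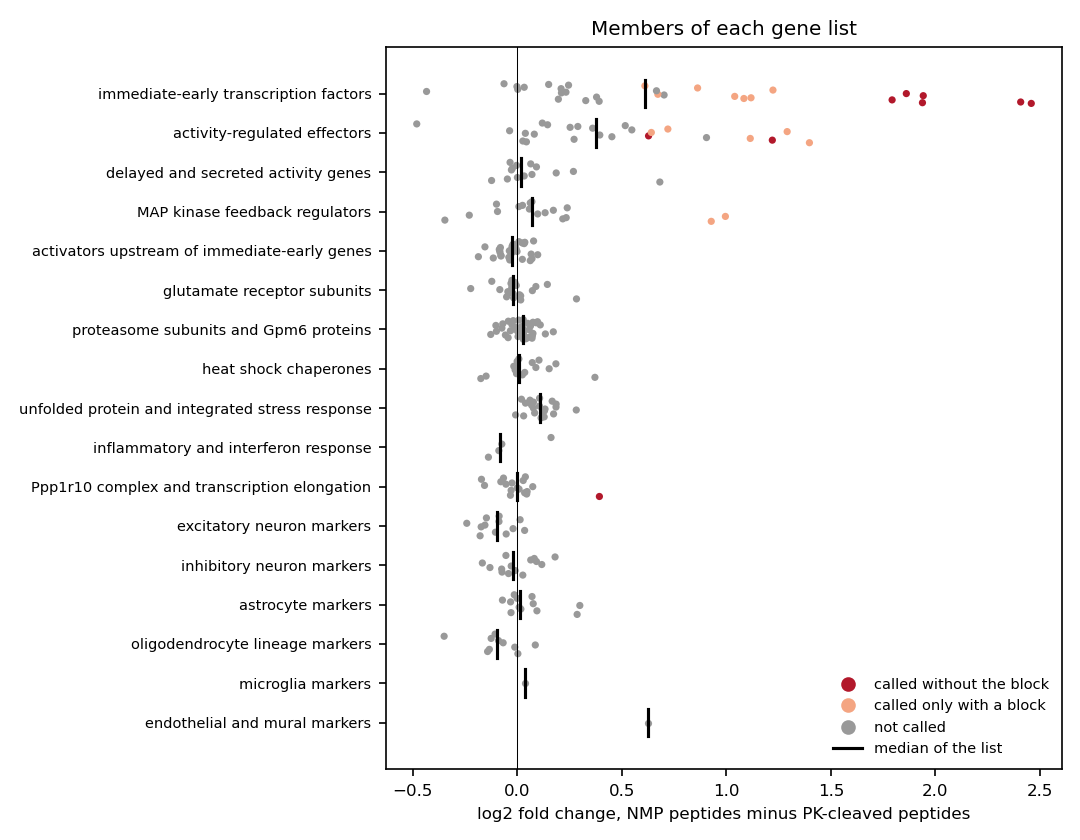
Log2 fold change with NMP peptides minus PK-cleaved peptides (x axis) of each tested member of the gene lists (y axis), with black bars at list medians and colours for members called with or without a replicate block. Called members lie in the immediate-early list (median 0.61), the effector list (0.38), the MAP kinase feedback list (0.07) and the list with Ppp1r10, while the medians of the other lists lie between -0.10 and 0.11 apart from the single tested endothelial and mural marker, Acta2, at 0.62.

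Markers of cell types served as a check of the cultures. All 12 excitatory and all 14 inhibitory neuron markers passed the filter, as did 12 of 13 astrocyte, 10 of 14 oligodendrocyte lineage, 1 of 13 microglia and 1 of 11 endothelial and mural markers. In bulk samples fewer cells of a type and less RNA per cell cannot be told apart. None of these markers was called without or with the block. For excitatory markers the median was -0.10 on the log2 scale, 2 of the 12 were higher than 0, and their summed linear signal was 435, 505 and 466 with NMP peptides, against 482, 540 and 482 with PK-cleaved peptides. That sum was lower with NMP peptides in all 3 same-numbered pairs. Of the 12 markers 0 had all 3 differences above 0, against 15.2% of all genes tested. Of 10 oligodendrocyte lineage markers tested, 2 lay above 0 and 0 had all 3 differences above 0, with a median of -0.10. In lists of 12 and 10 genes a share of 15.2% covers very few, so these counts of 0 do not show a shift. Inhibitory markers had a median of -0.02 and sums of 787, 700 and 743 with NMP peptides, against 714, 709 and 730 with PK-cleaved peptides. Summed astrocyte markers were at 371 to 432 with NMP peptides and 384 to 419 with PK-cleaved peptides. Microglia markers summed to 8.10 to 9.81 with NMP peptides and 8.08 to 9.72 with PK-cleaved peptides, and Cldn5, an endothelial marker, had no value in any of the 6 libraries. Among markers that did not pass the filter, the libraries with NMP peptides all lay above those with PK-cleaved peptides for the endothelial gene Kdr, and all below them for the microglial gene Aif1 and for Vtn, listed with the mural markers. All values of these 3 genes lay below 0 on the log2 scale, and their part in the results was not tested. The share of features below the filter with such separation was not determined. Among features below the filter, 22 had a value in all 3 libraries with NMP peptides and in none with PK-cleaved peptides, and 18 the reverse.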

How the data were processed

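Total RNA was depleted of ribosomal RNA and sequenced from both ends (100 bases), per the labels' protocols. The authors deposited 1 table of log2 signals with 45802 features and 14 libraries. The submitters' processing notes name the build GRCm38.p6. Aligner, counter, annotation and strand setting: not given in the sources used here. Quantile normalisation left every library with the same median (2.19) and maximum (12.0). Read depth is therefore unknown, and shifts in the RNA content of whole cultures are not visible. Base 2 was checked: linear signal times exon length summed to 834363 to 903228 per library.

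Of 18128 features with any value, the lowest 40% by mean over all libraries were dropped (counting a missing value as the table's minimum), leaving 10877 genes with 0 missing values. The 27 features with date-like names were not named. Group means were modelled with limma 3.58.1 (R 4.3.3, variance trend) over all 14 libraries, and two-sided p-values were adjusted over all genes by Benjamini-Hochberg. Replicate numbers were taken to pair NMP peptides with PK-cleaved NMP peptides, because deviations from the group means correlated across genes at 0.51, 0.499 and 0.613 for same numbers (rule: over 0.1 in each) and at -0.406 to -0.15 otherwise. Deviations within a group sum to 0 for each gene, so positive values for same numbers push the others below 0. The labels do not state this pairing. The fit was tested on simulated data. The alternatives were other filters, median centring, blocks, only these groups, no trend, array weights and leaving out libraries.

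Members, lists and named genes were chosen with earlier results of these data known. Named were called genes, the 5 highest and 5 lowest uncalled genes whose libraries do not overlap, and members of 17 lists. Klf10 and Ptgs2 belong to these lists. Promoters and positions are from RefSeq on GRCm38.p6.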

Additional observations from a re-analysis of the deposited data

How the results depend on the processing

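Without the replicate block 9 genes were called, all higher with NMP peptides than with PK-cleaved peptides. Restricting the fit with the replicate block to these groups gave a count of 25, of which 24 were higher, and 8 of the 9 were among them. With the block over these groups in the fit of all 14 libraries it was 11, and with a block over all groups 9, which were 8 of the 9 and Dusp1, without Ppp1r10 (adjusted p = 0.148). No filter gave 8, the stricter filter 7, median centring 9, only these groups without a block 6, no variance trend 6 and array weights 11. The stricter filter removed Npas4 and Klf4 from the test. Leaving out libraries gave 1 to 214 calls, of which 1 to 170 were higher. Leaving out single libraries gave 2 without NMP peptides replicate 1, 1 without replicate 2 and 11 without replicate 3, and 8, 1 and 2 without PK-cleaved peptides replicates 1, 2 and 3. Leaving out a same-numbered pair, with the block, gave 214, 41 and 34 calls without pairs 1, 2 and 3, from 2 pairs each. The cause was not tested. An alternative chosen after seeing the data, leaving out the 4 libraries richest in Gfap, gave 10. None of the 36 genes refitted under these alternatives (the 26 called with or without a block and 10 uncalled genes) changed sign. Values of other list members are given for the fits in the text only. The authors' normalisation removes depth, so its limit on low genes cannot be given.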
